A study of Mus musculus with 6 samples.

Results

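The microRNA genes on the array were followed in mouse embryonic stem (ES) cells grown with or without vitamin C. Members were taken by name, as every gene with a probe set that carries exactly 1 gene symbol starting with Mir and a digit, or with Mirlet7. A gene with several probe sets was represented by the brightest, judged by its mean across the 6 arrays. This gave 300 genes of 19938, read by 305 probe sets, of which 296 are microRNA genes and 4 are long transcripts named as microRNA hosts (Mir17hg, Mir99ahg, Mir100hg and Mir670hg). A further 61 probe sets, which name a microRNA gene among several symbols, were left out.

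A microRNA gene is transcribed as a long primary transcript, from which the nuclear Microprocessor, made of the nuclease Drosha and its partner Dgcr8, cuts a hairpin. Exportin-5 carries the hairpin to the cytoplasm, Dicer trims it to a short duplex, and an Argonaute protein keeps one strand, which finds its targets mainly through the seed, bases 2 to 8 of the mature microRNA. Many microRNA genes lie inside introns of protein-coding or noncoding hosts, and several lie side by side on one transcript. In mouse ES cells the best-known families are miR-290 to miR-295, miR-302 and miR-17, which favour proliferation and self-renewal, while let-7 favours differentiation. Silica columns of the kind used here in general lose very short RNA, and a whole-transcriptome amplification reads long RNA, so the values below are taken as signal from primary transcripts or hairpins. Mature microRNAs were not measured.

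Both groups were Oct4-GiP ES cells, which carry a reporter under control of the pluripotency gene Oct4, cultured on gelatin in N2B27, a serum-free medium, supplemented with LIF, the MEK inhibitor PD0325901 and the GSK3 inhibitor CHIR99021. The vitamin C group received 200 μg/ml of L-ascorbic acid 2-phosphate, a stable form of vitamin C, for 72 hours (3 arrays), and the untreated group had the same medium without it (3 arrays). The submitters describe the replicates as biological. The labels name 1 cell line, so other lines were not compared.

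All 14 ES cell markers examined were measured, and 13 of them had a mean signal in the upper quartile of all genes, which is a rough guide because levels of different probe sets are not on one scale. Of these markers 3 were higher with vitamin C and 1 was lower (28.6% called, against 13.2% of all genes by the test described below). Correlations across all genes were 0.995 to 0.996 between arrays of the same group and 0.989 to 0.990 between groups. Of 12 fibroblast markers, 5 were higher with vitamin C and 1 was lower (50% called), and their summed log2 signal was 73.2 to 73.5 in the vitamin C arrays, against 69.2 to 70.2 in the untreated arrays. Of 8 primitive endoderm markers 2 were higher (25%), of 8 trophectoderm markers 1 was higher and 2 were lower (37.5%), and none of 6 neuroectoderm or 5 measured mesoderm markers was called. The part of these genes in the microRNA results was not tested, and in bulk RNA fewer cells of a type and less RNA per cell cannot be told apart.

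The mature sequences of the called genes, and of the relatives they are compared with below, are printed from the RefSeq tables of GRCm38.p6, which matched a hairpin for 258 members and a mature arm for 270. Mir122 is called but its sequence is not printed here. Capitals mark the seed, and sequences run 5′ to 3′. The first group shares the seed of the miR-15 and miR-16 family, whose known targets include the survival gene Bcl2 and G1 cyclins. The second shares that of the miR-130 and miR-301 family. The others belong to called genes, apart from miR-204, which is shown because miR-211 has the same seed.
miR-15a-5p: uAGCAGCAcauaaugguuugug
miR-15b-5p: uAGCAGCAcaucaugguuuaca
miR-16-5p: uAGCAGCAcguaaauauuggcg
miR-195a-5p: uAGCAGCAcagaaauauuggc
miR-497a-5p: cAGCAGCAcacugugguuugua
miR-301a-3p: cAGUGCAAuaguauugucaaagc
miR-130a-3p: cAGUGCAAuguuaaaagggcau
miR-130b-3p: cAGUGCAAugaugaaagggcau
miR-186-5p: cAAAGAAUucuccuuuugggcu
miR-6516-5p: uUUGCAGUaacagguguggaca
miR-377-3p: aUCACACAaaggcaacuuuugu
miR-134-5p: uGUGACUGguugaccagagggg
miR-680: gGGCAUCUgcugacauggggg
miR-211-5p: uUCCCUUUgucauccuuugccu
miR-204-5p: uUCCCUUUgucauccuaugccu
miR-9-5p: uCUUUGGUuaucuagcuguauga

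Few microRNA genes passed the threshold for a difference between the groups. A gene is called below at an adjusted p under 0.05 in limma, with Benjamini-Hochberg adjustment over all genes, and a difference is a difference of mean log2 signals, vitamin C minus untreated. Of the 300 members, 8 were higher with vitamin C, 4 were lower and 288 were not called. The called share was 4.0%, against 13.2% of all genes tested, of which 5.75% were higher and 7.40% lower. The groups did not overlap for 54 members (18%), against 35.0% of all genes. Most members were dim, and both shares are given by quartile of signal below. The median size of the difference, whatever its sign, was 0.143 over the members and 0.126 over all genes. The median SE was 0.112 over the members and 0.084 over all genes. The median difference was 0.03 over the members and 0.01 over all genes, and 169 members had a positive difference and 131 a negative one.

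The largest rise was that of Mir6516, whose mature 5p arm lies at chr11:117077370-117077391 on the plus strand, inside the noncoding gene Snhg20. Its log2 signal was 9.07, 8.96 and 9.07 in the vitamin C arrays, against 7.53, 7.98 and 8.06 in the untreated arrays, a difference of 1.18 ± 0.14 (SE, limma adjusted p = 0.00242) or 2.26-fold. The lowest vitamin C array lay well above the highest untreated one. Snhg20 has no probe set of its own symbol among the genes tested, so signal of that transcript and of the hairpin cannot be told apart here.

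Mir377 and Mir134 belong to the large microRNA cluster of the imprinted Dlk1-Dio3 region. Mir377 (3p arm at chr12:109740553-109740574, plus strand) had 5.76, 5.45 and 5.54 in the vitamin C arrays and 4.38, 4.87 and 4.71 in the untreated arrays, a difference of 0.93 ± 0.14 (SE, adjusted p = 0.00663). Mir134 is known in neurons for its role in dendritic spines, and in mouse ES cells its microRNA was reported to target pluripotency factors. Its signal (5p arm at chr12:109734145-109734166, plus strand) was 6.91, 6.67 and 6.70 with vitamin C and 6.41, 6.40 and 6.26 without, a difference of 0.40 ± 0.09 (SE, adjusted p = 0.0230). Neither gene's groups overlapped.

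Mir680-2 (mature at chrX:144297790-144297810, plus strand) had 6.68, 6.39 and 6.42 in the vitamin C arrays, against 5.82, 5.87 and 5.82 in the untreated arrays. The difference was 0.66 ± 0.09 (SE, adjusted p = 0.00454). The genes Mir680-1 and Mir680-3, named as further copies, had differences of 0.27 (adjusted p = 0.105) and 0.24 (adjusted p = 0.147) and were not called. Probe sequences were not used here, so how far the probe sets of such copies read each other's transcripts was not tested.

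The other rises were smaller. Mir211, a microRNA of melanocytes that lies in the melastatin gene Trpm1 (5p arm at chr7:64205831-64205852, plus strand), had 5.96, 6.16 and 6.26 with vitamin C and 5.65, 5.50 and 5.72 without, a difference of 0.51 ± 0.10 (SE, adjusted p = 0.0168). Mir204, whose mature sequence printed above has the same seed, had a difference of -0.02 (95% interval -0.20 to 0.17). Mir9-1, one of the genes of the neural microRNA miR-9 (5p arm at chr3:88215613-88215635, plus strand), had 4.08, 4.02 and 3.98 with vitamin C and 3.80, 3.58 and 3.65 without, a difference of 0.35 ± 0.07 (SE, adjusted p = 0.0234). Mir9-3, which encodes the same microRNA, had a difference of 0.08 (95% interval -0.10 to 0.25). Mir122, the gene of the main microRNA of liver, had 4.68, 4.69 and 4.65 with vitamin C and 4.33, 4.36 and 4.35 without, a difference of 0.33 ± 0.06 (SE, adjusted p = 0.0107). The arrays of each Mir122 group lay close together, with an SD of 0.02 in both groups, on a dim probe set. Its mean signal lay in the lowest quartile of all genes, as did those of Mir9-1 and of Mir301 and Mir15b, described below.

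The largest fall was that of Mir186 (5p arm at chr3:157544285-157544306, plus strand), which lies in Zranb2, a gene for a splicing-related zinc finger protein. Its signal was 4.69, 4.98 and 4.45 in the vitamin C arrays, against 5.39, 5.61 and 5.80 in the untreated arrays, a difference of -0.90 ± 0.15 (SE, adjusted p = 0.0107) or 1.86-fold lower. Mir301, the gene of miR-301a (3p arm at chr11:87113054-87113076, plus strand), had 3.04, 2.63 and 2.57 with vitamin C and 3.57, 3.47 and 3.45 without. Its difference was -0.75 ± 0.13 (SE, adjusted p = 0.00990), and the groups of both genes were apart. Mir130a and Mir130b, which share the seed of miR-301a, had differences of -0.41 (adjusted p = 0.301) and -0.13 (adjusted p = 0.367), with overlapping groups. Mir301b, of the same family, had -0.05 (95% interval -0.47 to 0.37, adjusted p = 0.890).

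**Figure D1:**
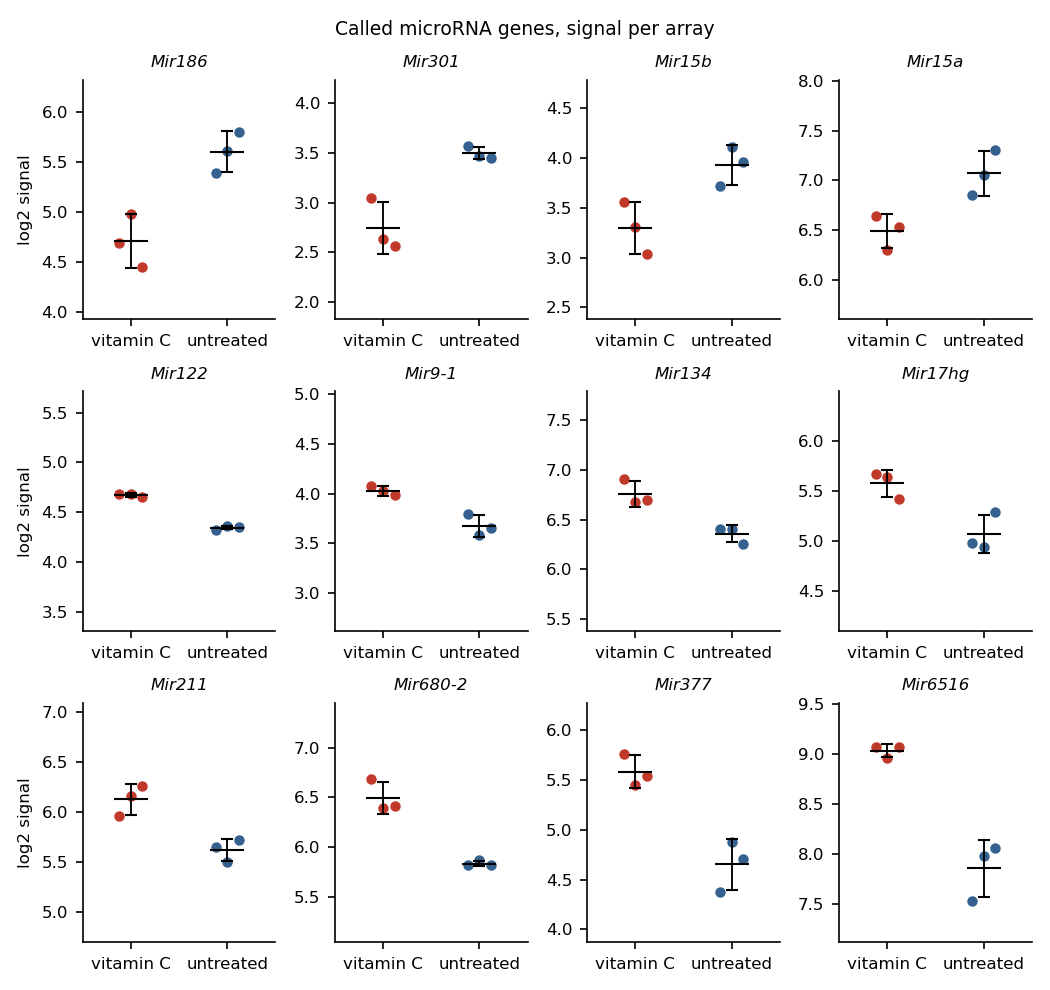
Log2 signal of the 12 called microRNA genes on each of the 3 vitamin C arrays (red, left) and 3 untreated arrays (blue, right), ordered by difference. Horizontal lines are group means, bars are 1 SD, every panel spans the same range of log2 units, and the groups do not overlap in any panel.

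The other called falls were Mir15a and Mir15b, both genes of the miR-15 and miR-16 family. They sit in separate clusters, Mir15a beside Mir16-1 on chromosome 14 and Mir15b beside Mir16-2 on chromosome 3. Mir15a (5p arm at chr14:61632075-61632096, minus strand) had 6.64, 6.31 and 6.53 in the vitamin C arrays, against 6.85, 7.05 and 7.31 in the untreated arrays, a difference of -0.58 ± 0.13 (SE, adjusted p = 0.0300). Mir15b (5p arm at chr3:69009775-69009796, plus strand) had 3.56, 3.31 and 3.04 with vitamin C and 3.71, 4.11 and 3.95 without, a difference of -0.62 ± 0.15 (SE, adjusted p = 0.0344). For both genes every vitamin C array lay below every untreated array, by a narrow margin.

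The remaining 4 members with the AGCAGCA seed were looked up after these values were seen, and none was called. Mir16-2 had 3.38, 3.06 and 3.66 in the vitamin C arrays and 4.08, 3.71 and 3.93 in the untreated arrays, a difference of -0.54 (adjusted p = 0.0654) with groups that lay close together but did not overlap. Mir16-1 had 4.29, 3.89 and 3.47 with vitamin C and 4.67, 4.15 and 4.37 without, a difference of -0.51 (adjusted p = 0.163) with overlapping groups. Mir195a and Mir497, which sit together on chromosome 11, had differences of 0.11 (95% interval -0.05 to 0.28) and 0.22 (0.00 to 0.44). The 4 genes of the chromosome 3 and chromosome 14 pairs thus had differences of -0.62 to -0.51, and the chromosome 11 pair had positive ones. Whether probe sets of this family read each other's transcripts was not tested.

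**Figure D2:**
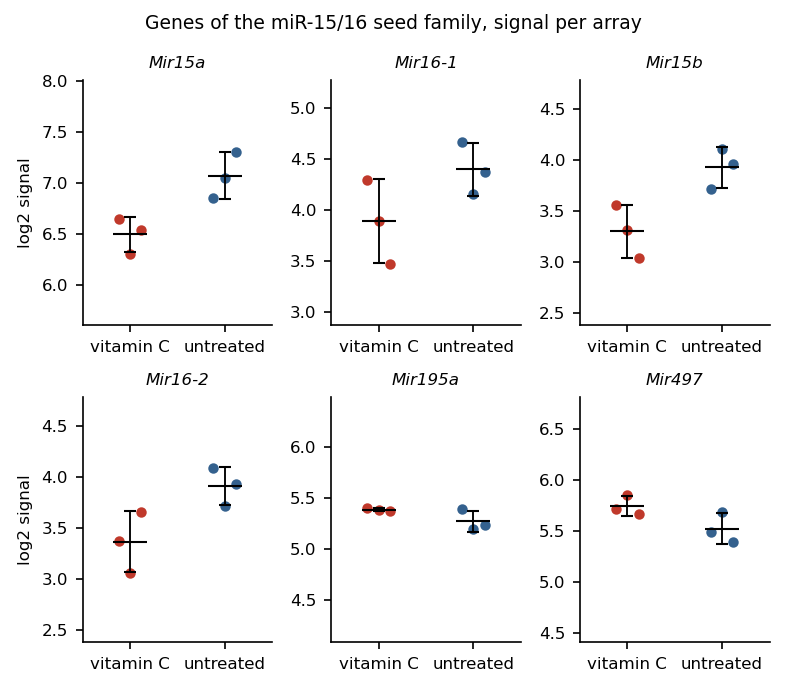
Log2 signal of the 6 measured genes with the AGCAGCA seed on each vitamin C array (red, left) and untreated array (blue, right), with group means and 1 SD as bars. Mir15a and Mir15b were called, Mir16-1 and Mir16-2 had lower means with vitamin C but were not called, and Mir195a and Mir497 had higher means and were not called.

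Several of these calls were lost when 1 array was left out. Over all genes, the 2623 calls also fell, to 1483 to 1721, with 1 array left out. Mir6516, Mir377, Mir680-2, Mir122, Mir301 and Mir186 were called whichever array was left out. Mir15a was called without untreated replicate 1, and leaving out any other array gave adjusted p-values up to 0.0800. Mir15b lost its call without untreated replicate 2 or 3 or vitamin C replicate 2 or 3 (up to 0.0988). Mir134 kept its call only without vitamin C replicate 2, and Mir9-1 only without untreated replicate 1, with adjusted p-values up to 0.0738 for Mir134 and 0.0779 for Mir9-1 otherwise. Mir211 lost its call without untreated replicate 2, vitamin C replicate 2 or vitamin C replicate 3 (up to 0.0538). Mir17hg, described next, lost it without untreated replicate 1 or 2 or vitamin C replicate 1 or 2 (up to 0.0927).

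Mir17hg, the noncoding host transcript of the miR-17 cluster, had 5.67, 5.64 and 5.42 in the vitamin C arrays, against 4.98, 4.94 and 5.29 in the untreated arrays. The difference was 0.50 ± 0.11 (SE, adjusted p = 0.0277), and the lowest vitamin C array lay just above the highest untreated one. None of the 5 measured microRNA genes of that cluster on chromosome 14 was called. Their differences were 0.27 for Mir20a, 0.21 for Mir17, 0.19 for Mir19b-1, 0.10 for Mir18 and -0.15 for Mir19a, and the Mir17 groups overlapped widely (5.61, 5.74 and 5.73 with vitamin C, 5.94, 5.39 and 5.12 without). A probe set that names both Mir17hg and Mir92-1, and so is outside the members, had a difference of 0.07 ± 0.16 (SE, adjusted p = 0.815). The other 3 host transcripts named by symbol were not called, with differences of 0.16 for Mir100hg, -0.11 for Mir99ahg and -0.15 for Mir670hg. Dimmer probe sets of Mir99ahg had positive differences of 0.07, 0.20 and 0.20, none called when all probe sets were tested.

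Genomic clusters were formed from genes of the same strand with at most 10 kb between neighbours, using gene order in the GRCm38.p6 table. There were 13 clusters with 3 or more measured genes, holding 81 members, and 2 of these 81 were called (2.47%, against 13.2% of all genes). Both were the chromosome 12 genes Mir377 and Mir134. The other 219 members held 6 rises and 4 falls (4.57% called). They include the host transcripts named by symbol and pairs too small to count as clusters here, such as Mir15b with Mir16-2.

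The Mir379 to Mir369 cluster of chromosome 12, with 30 measured genes, had differences between -0.47 for Mir381 and 0.93 for Mir377, of which 17 were positive and 13 negative. Its median difference was 0.10, 28 of the 30 genes were not called, and whether they shared a small shift was not tested. The neighbouring Mir673 to Mir136 cluster, with 8 measured genes, had a median difference of 0.15 and 7 positive differences, none called. In the same imprinted region the long noncoding RNAs Meg3 and Rian, which are transcribed in the same direction, had differences of 0.24 (95% interval 0.05 to 0.43, adjusted p = 0.0981) and 0.21 (-0.16 to 0.58, adjusted p = 0.436). Rtl1, a retrotransposon-derived gene whose span holds all 8 genes of the Mir673 to Mir136 cluster, was higher with vitamin C by 0.43 ± 0.11 (SE, adjusted p = 0.0394). The tables used here did not give its strand, so Rtl1 was not counted as a host of these genes. The Rtl1 call was lost whichever array was left out (adjusted p 0.0546 to 0.101).

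Clusters known for their role in ES cells were not called. The genes Mir302a, Mir302b, Mir302c, Mir302d and Mir367 had group means of 2.07 to 3.51, low on this array, and differences of 0.07 for Mir302a, -0.20 for Mir302b, -0.59 for Mir302c, -0.09 for Mir302d and -0.10 for Mir367. The interval of the largest of these, Mir302c, ran from -1.22 to 0.04. In the Mir106b, Mir93 and Mir25 cluster, whose host Mcm7 is a subunit of the replicative helicase, Mir25 had 7.45, 7.10 and 7.21 with vitamin C and 7.01, 6.91 and 6.91 without, a difference of 0.31 (adjusted p = 0.0765) with no overlap. Mir106b had 0.26 (adjusted p = 0.128) and Mir93, between them, had -0.13 (adjusted p = 0.246). Mcm7 had 0.08 (95% interval -0.06 to 0.22). The related X-linked cluster of Mir106a and Mir363 had 5 measured genes, with differences of -0.23 for Mir19b-2, -0.12 for Mir363, -0.10 for Mir106a, 0.01 for Mir92-2 and 0.03 for Mir20b. The Mir290 to Mir295 genes were not among the members and are not analysed here.

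**Figure D3:**
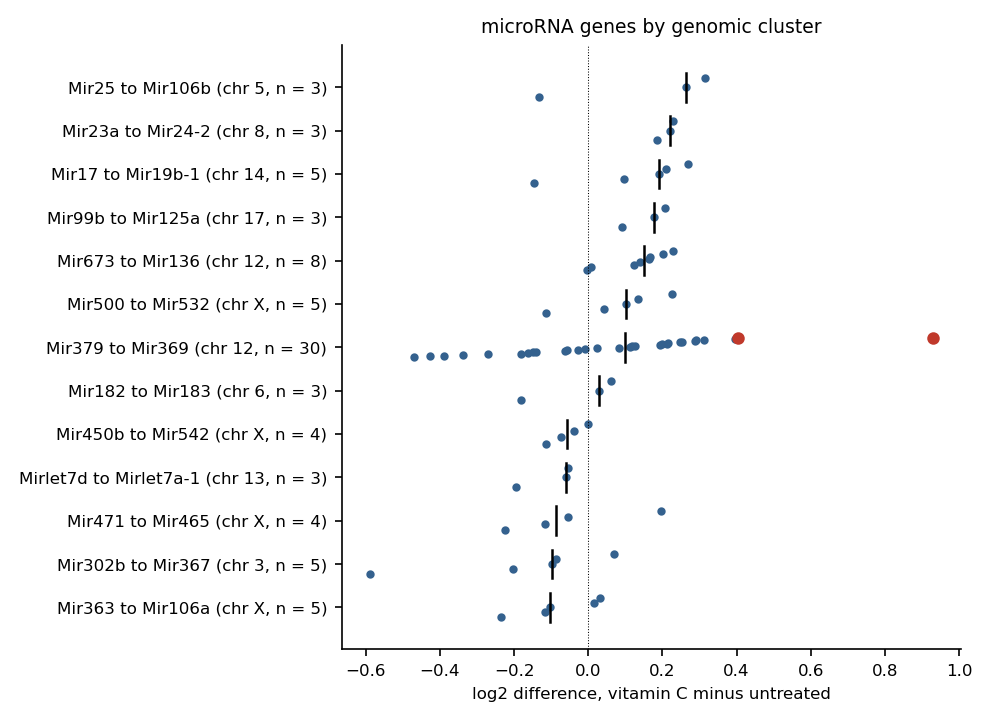
Log2 difference (vitamin C minus untreated) of every gene in the 13 clusters with 3 or more measured microRNA genes, 1 cluster per line, with a bar at the cluster median and the called genes Mir134 and Mir377 in larger red points. Medians run from -0.10 to 0.26, and the 30 genes of the Mir379 to Mir369 cluster spread over both sides of 0.

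Families linked to cell identity were likewise without calls. The 9 measured let-7 genes and Mir98 of the same family had differences of -0.19 for Mirlet7f-1 to 0.15 for Mirlet7i, of which 3 were positive and 7 negative. A mature sequence was matched for Mir98 and 8 of the let-7 genes, all with the seed GAGGUAG. Among the epithelial miR-200 genes, Mir200a had 0.22, Mir200c -0.07, Mir200b -0.17 and Mir141 -0.27, each with an interval that includes 0. The p53-responsive genes Mir34a, Mir34b and Mir34c had -0.05, 0.21 and 0.01. The smooth muscle genes Mir143 and Mir145a had 0.01 and -0.17. Mir210, a well-known target of the hypoxia-inducible factors, had 7.11, 6.84 and 6.95 in the vitamin C arrays and 6.78, 6.78 and 6.81 in the untreated arrays, a difference of 0.18 (95% interval -0.01 to 0.37, adjusted p = 0.196).

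The members were dim as a group. Cut at the quartiles of mean signal over all genes, 194 members (64.7%) lay in the lowest quartile, 68 in the next, 33 in the third and 5 in the highest. Calls numbered 4 of 194 (2.06%) in the lowest quartile, against 3.42% of the other genes there, 4 of 68 (5.88%) against 8.46%, 3 of 33 (9.09%) against 19.0% and 1 of 5 (20%) against 21.9%. The called share of the members was below that of the other genes in each quartile, by little in the highest, and this difference was not tested. The quartiles do not fully match the sets, because the members were dimmer and had a larger median SE within each. In the lowest quartile the median signal was 3.2 against 3.7 and the median SE 0.13 against 0.11. In the third the median SE was 0.095 against 0.082. Apart from Mir6516, the 10 members with the highest signal were Mir598, Mir692-1, Mir667, Mir346, Mir328, Mir320, Mir99b, Mir25 and Mir139. None of these 9 was called, and their differences lay between -0.10 for Mir692-1 and 0.31 for Mir25. Mir598 had the highest mean log2 signal, at 10.37, 10.22 and 10.32 with vitamin C and 10.32, 10.25 and 10.26 without.

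Brighter members leaned to higher signal with vitamin C, although few were called. Differences were positive for 82 of 194 members in the lowest quartile (median -0.03), for 53 of 68 in the next (0.10), for 30 of 33 in the third (0.17) and for 4 of 5 in the highest (0.19). The other genes were positive in 2906 of 4791 cases in the lowest quartile (median 0.04), 3156 of 4916 in the next (0.06), 2137 of 4951 in the third (-0.04) and 2153 of 4980 in the highest (-0.03). Both sets thus leaned to positive differences in the quartile above the lowest, and they leaned in opposite directions in the others. Above the lowest quartile 87 of 106 members were positive, with a median of 0.12, against 0.00149 over all genes above that border. Over the 258 members with a hairpin sequence, a base composition check made after the values were seen gave a Spearman correlation of 0.77 between the GC content of the hairpin and mean signal, and of 0.41 between GC content and the difference. These are correlations across genes measured on the same 6 arrays, given as a description. Of the 129 hairpins with GC content above the median of 47.3%, 94 had a positive difference (median 0.10), and of the other 129, 47 had one (median -0.06). Signal and GC content thus moved together with the direction of the differences, and the part of either was not tested.

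**Figure D4:**
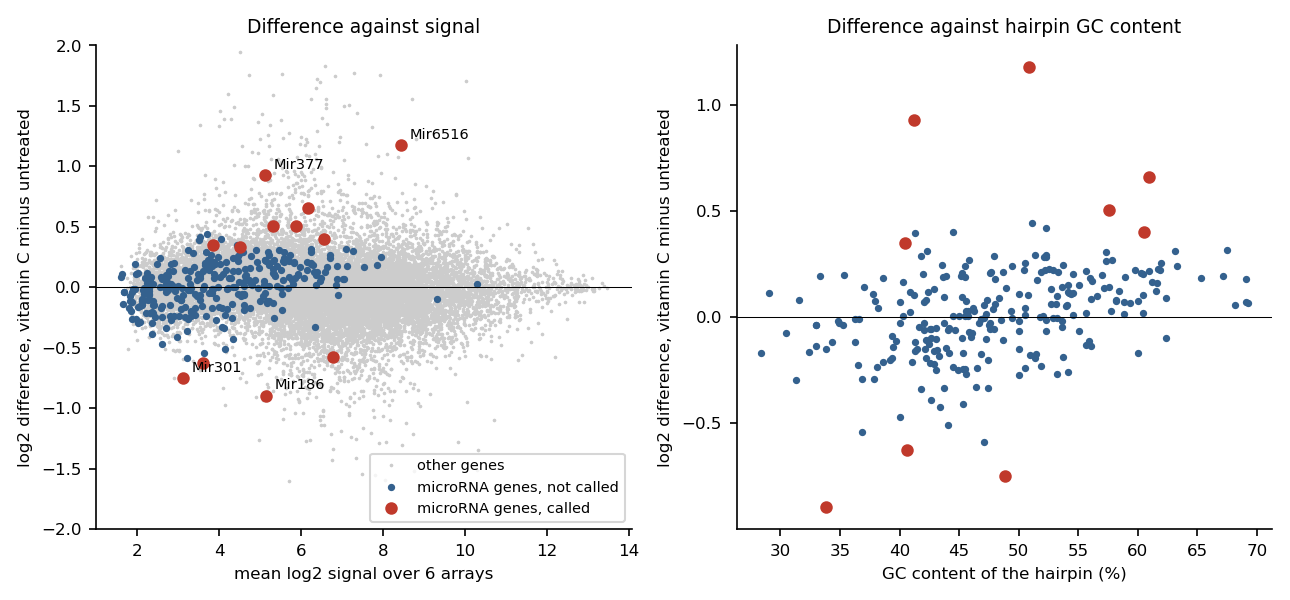
Left, log2 difference (vitamin C minus untreated) against mean log2 signal for other genes (grey), microRNA genes not called (blue) and called ones (red), with 22 other genes outside the axis limits of -2 and 2. Right, the same difference against hairpin GC content for the 258 members with a hairpin sequence, where positive differences are more frequent at higher GC content.

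Host genes and the microRNA genes inside them were set side by side. A host here is another gene on the same strand whose span holds the whole microRNA gene, and 76 measured hosts formed 97 pairs with 96 microRNA genes. Mir17hg and Mir99ahg formed no pair by this rule. The called Mir17hg and the uncalled microRNA genes of its cluster are therefore outside the counts of pairs. Of the hosts, 4 were higher with vitamin C and 5 lower (11.8%, against 13.2% of all genes). A called host was present in 10 pairs and a called microRNA gene in 4, so few pairs could have both. Whether such calls coincided more or less often than these counts would give was not tested. The microRNA genes were dimmer than the hosts (median signal 4.12 against 6.57) and had a larger median SE (0.102 against 0.081). The differences had the same sign in 55 of 97 pairs, with a Pearson correlation of 0.195 and a Spearman correlation of 0.169 across pairs, which share arrays and in part hosts.

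In 1 pair both genes were called. Ska2, a spindle and kinetochore protein gene that holds Mir301, had a difference of -0.37 ± 0.07 (SE, adjusted p = 0.0171), in the same direction as Mir301. The Mir301 probe set was in the lowest quartile of signal. The Ska2 call was lost without untreated replicate 1, untreated replicate 3 or vitamin C replicate 1 (adjusted p up to 0.0602). Zranb2, around Mir186, had -0.19 ± 0.06 (SE, adjusted p = 0.0944) and was not called. Trpm1, around Mir211, had -0.04 (95% interval -0.18 to 0.10), and Dleu2, the noncoding host of Mir15a and Mir16-1, had 0.08 (-0.16 to 0.33). The Dleu2 probe set had a mean log2 signal of 1.93, near the lowest of all genes (1.60). Its difference therefore says little about that transcript. Mir15b and Mir16-2 lie within the span of the condensin gene Smc4, for which the tables used here gave no strand, and Smc4 had 0.10 (-0.04 to 0.24).

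The reverse case, a called host around an uncalled microRNA gene, was seen in 9 pairs, against 3 pairs with only the microRNA gene called. Mir17hg is not among these pairs, and those described here were chosen after their values were seen. Igf2, an imprinted fetal growth factor gene, had 8.72, 8.58 and 8.75 in the vitamin C arrays, against 6.50, 6.64 and 6.37 in the untreated arrays, a difference of 2.18 ± 0.09 (SE, adjusted p = 3.91e-05). Mir483, inside Igf2, had 6.38, 6.39 and 6.41 with vitamin C and 6.22, 6.28 and 6.12 without, a difference of 0.19 (95% interval 0.03 to 0.34, adjusted p = 0.110). The Mir483 interval lies far below the Igf2 difference, and the groups did not overlap for either gene. Copz2, a coatomer subunit gene, had -0.80 ± 0.12 (SE, adjusted p = 0.00658), while Mir152 inside it had 0.16 (adjusted p = 0.240). Nfyc, a subunit gene of the transcription factor NF-Y, had 0.50 ± 0.08 (SE, adjusted p = 0.00781), and its microRNA genes Mir30e and Mir30c-1 had 0.44 (adjusted p = 0.107) and -0.01 (adjusted p = 0.968). The Mir30e difference was thus close to that of Nfyc in size and direction. It had a larger SE, of 0.16, and a 95% interval of 0.08 to 0.81.

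**Figure D5:**
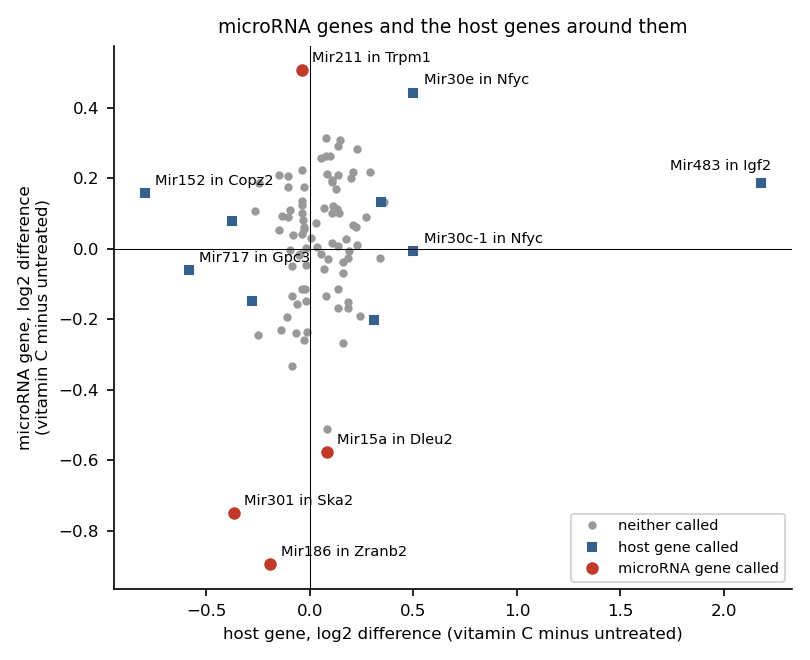
Log2 difference (vitamin C minus untreated) of each microRNA gene against that of the host gene around it, for 97 pairs, with pairs coloured by which gene was called. Igf2 stands far to the right at 2.18 while Mir483 sits at 0.19, and Mir301 with Ska2 is the only pair in which both genes were called.

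The genes that make and control microRNAs were listed from general knowledge, and 27 of 29 were measured. Of these 2 were higher with vitamin C, 2 were lower and 23 were not called (14.8% called, against 13.2% of all genes), with a median difference of -0.05. Srrt, which links the cap-binding complex to the Microprocessor, had 8.54, 8.59 and 8.55 in the vitamin C arrays, against 8.02, 8.01 and 8.20 in the untreated arrays, a difference of 0.48 ± 0.07 (SE, adjusted p = 0.00679). Ddx17, a helicase that works with Drosha, had 9.30, 9.46 and 9.43 with vitamin C and 9.86, 9.82 and 9.86 without, a difference of -0.45 ± 0.07 (SE, adjusted p = 0.00645). The groups of both genes were well apart.

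Lin28a, the RNA-binding protein that blocks let-7 maturation and one of the ES cell markers above, had 6.88, 6.58 and 6.57 in the vitamin C arrays and 7.17, 7.13 and 7.26 in the untreated arrays, a difference of -0.52 ± 0.10 (SE, adjusted p = 0.0151). Zswim8, part of the ubiquitin ligase that acts in target-directed microRNA decay, was higher by 0.28 ± 0.07 (SE, adjusted p = 0.0408). The Zswim8 call was kept only without vitamin C replicate 1 when single arrays were left out (adjusted p up to 0.106 otherwise), and the Lin28a call was lost without untreated replicate 3 or vitamin C replicate 3 (up to 0.0529). The core enzymes were not called. Drosha and Dgcr8 both had differences of 0.12, with 95% intervals of -0.04 to 0.29 for Drosha and -0.03 to 0.27 for Dgcr8. Xpo5, the gene of exportin-5, had 0.05 (-0.10 to 0.21), Dicer1 had -0.11 (-0.31 to 0.09) and Ago2, the Argonaute that cuts its targets, had 0.18 (-0.01 to 0.37). Trim71, a let-7 target and stem cell factor, had 0.25 (0.07 to 0.43, adjusted p = 0.0740).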

How the data were processed

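The authors deposited 1 table of log2 values for 35557 probe sets on 6 one-colour Affymetrix arrays, and the log2 scale was inferred from the range of the values. RMA, which in general corrects the background, quantile-normalizes arrays and summarises probes, is named in the submitters' processing notes. The sources used here do not give its settings or version. Quantile normalization hides a change shared by all genes, and dim probe sets tend to show compressed differences. One probe set's level cannot be set against another's, and precision is limited by the number of arrays. Total RNA came from columns with a DNase step and was amplified with a whole-transcriptome kit, per the labels' protocols. No detection calls were used here.

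The platform annotation gave 1 symbol for 21789 probe sets, which made 19938 genes with 1 value each. Groups came from sample titles. The groups were compared over all genes with limma 3.58.1 under R 4.3.3, using lmFit followed by eBayes at default settings without covariates, and Benjamini-Hochberg adjustment covered all of them. The fit was also run on simulated arrays with known changes and independent genes, and no result here rests on that run. Hosts and clusters used gene order in the GRCm38.p6 table only, and 25 members without a strand there were left out of both. Sequences come from RefSeq of the same assembly.

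Named genes were all called members, the 10 with the highest signal, families listed beforehand (the ES cell clusters, miR-200, let-7, miR-34, Mir143, Mir145a and Mir210), hosts of called members, and called or core processing genes. Further genes were picked with their values known. The members and lists were chosen with earlier results of these data known. Alternatives changed the spread model, normalization, filter, probe-set choice, array weights, replicate block, threshold, arrays included, cluster gap and signal bins.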

Additional observations from a re-analysis of the deposited data

How the results depend on the processing

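The 12 microRNA calls became 4 with no moderation of the spread (3 of them shared), 6 with all 35557 probe sets tested (all shared), 4 at an adjusted p under 0.01 and 20 under 0.10, and 6 to 13 when 1 array was left out. The other settings gave 10 to 17 calls, 17 of them with a trended and robust spread. Mir6516 and Mir680-2 were called in every setting that changed the fit, the arrays or the probe sets. Mir122 was called in all of these except the filter on dim genes, which left out Mir122, Mir301, Mir15b and Mir9-1. Over all genes the 2623 calls became 4151 with a trended and robust spread, 1545 with no moderation, 901 at an adjusted p under 0.01, 4096 under 0.10 and 1483 to 1721 with 1 array left out. The 4 machinery calls became 7 with a trended and robust spread, 2 with no moderation, 2 under 0.01, 7 under 0.10 and 2 to 4 with 1 array left out. The 9 host calls became 16 with a trended and robust spread and 5 under 0.01. No named gene that was called changed direction, and the cause of these shifts was not tested. Joining neighbours up to 50 kb apart gave 16 clusters in place of 13, and bins from the untreated arrays put 187 members in the lowest quartile in place of 194. Subtracting the trend of the difference against signal left 159 members positive and 141 negative.

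The groups share replicate numbers. Deviations of same-numbered arrays correlated at 0.0518, 0.00961 and -0.0237, against -0.0670 to 0.0546 for arrays with different numbers. These values gave no sign of pairing, but they cannot show whether the replicates were handled in matched sets. With the replicate block 1723 genes, 11 members (9 shared), 3 machinery genes and 6 hosts were called, and the adjusted p was 0.0543 for Mir15a, 0.0720 for Mir15b, 0.0771 for Mir17hg, 0.0528 for Ska2, 0.0567 for Rtl1 and 0.0805 for Zswim8. Mir16-2 was called in that fit (adjusted p = 0.0390).

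Precision is limited by 3 arrays a group and by the low signal of 194 members, and a p above the threshold does not show that a gene did not differ.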

Other observations

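Probe sets that name only microRNA genes but several of them formed 8 units, none of which was called. The unit of the Mir669a and Mir669p genes, read by 13 probe sets, had a difference of -0.06 ± 0.09 (SE, limma adjusted p = 0.686), and the unit of Mir467a, Mir467b and Mir467d genes, read by 9, had -0.04 ± 0.16 (SE, adjusted p = 0.889). Mir22 with its host transcript had 0.20 ± 0.17 (SE, adjusted p = 0.503). Among single members that were not called, the most positive differences were 0.44 for Mir30e, 0.42 for Mir99a (adjusted p = 0.0793) and 0.40 for Mir216a (adjusted p = 0.174), and the most negative were -0.59 for Mir302c and -0.54 for Mir16-2. Mir543 had 4.23, 3.94 and 4.22 in the vitamin C arrays, against 4.04, 5.85 and 3.78 in the untreated arrays, where 1 array stood apart.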
